A study of Rattus norvegicus with 4 samples.

Results

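Gene expression in rat gracilis muscle after 4 h of ischemia and 1 day of reperfusion was compared with that in muscle of a sham-operated control. The comparison rested on 1 of the 4 arrays in the series, the one hybridized with day 1 muscle, and took in every gene probe on it. Of 35587 gene names on the array, 22899 were used because their probe was well above background in the injured channel, the sham channel or both. The injured muscle was a gracilis, a strap-like muscle of the inner thigh, from a male Sprague-Dawley rat and was labelled with Cy5. The sham-operated muscle was also a gracilis of a male Sprague-Dawley rat and was labelled with Cy3. The labels give no age, and it is not stated if 1 sham RNA served all arrays. The design text gives 1 injured and 1 sham muscle per condition. The dyes were not swapped, so a dye effect on a single probe and a difference between the muscles cannot be told apart.

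When blood flow returns to a muscle that has been without it, oxygen radicals, calcium overload and complement injure fibres and vessel walls. Neutrophils arrive first, monocytes follow and clear dead fibres, and satellite cells later rebuild the muscle through a programme of embryonic muscle genes. RNA from such tissue mixes transcripts of surviving fibres, dying fibres and the cells that enter.

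Each value is a log2 ratio of injured to sham brightness after background correction and loess normalization, so that 1 means 2-fold higher and -1 means 2-fold lower in injured muscle. Where 2 brightness values are given they are normalized log2 levels of 1 probe, the injured muscle first, and they are not compared between genes. With 1 array there was no replicate and no test. Genes past 2-fold in either direction were called higher or lower, a criterion of magnitude only. The 40 probes with 10 spots each gave a spot-to-spot SD of 0.0768 in log2 ratio, which is the noise within this array and leaves out the spread between animals. As a further yardstick the injured channel was set against the sham channel of each of the 4 arrays, and the range of those ratios is called the range over the 4 sham channels.

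The injured channel was the brighter one, with 64.4% of probes well above background against 47.3% in the sham channel, and 6161 genes were measured in injured muscle alone against 158 in sham alone. Spots too bright for the scanner numbered 98 in the injured channel and 3 in the sham channel. Across genes, which are not independent replicates, the day 1 sham channel correlated with those of days 3, 7 and 14 at r = 0.9914, 0.9656 and 0.9932, and 159, 1066 and 119 genes were at least 2-fold apart. The muscle label was checked against fibre markers: all 12 fast fibre genes and all 14 slow fibre genes with a probe were well above background in both channels.

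In injured muscle 283 genes were at least 2-fold higher than in sham (1.24% of those measured) and 1127 were at least 2-fold lower (4.92%). Lower genes also reached further: 345 were at least 4-fold lower and 133 at least 8-fold lower, against 17 that were at least 4-fold higher and 1 that was at least 8-fold higher. Of the genes called, 221 of the 283 higher and 787 of the 1127 lower ones were past 2-fold against each of the 4 sham channels. The split of the calls depended on the scaling. Higher genes made up 20.1% of the calls after loess, 58.4% by the deposited ratios (2745 higher and 1953 lower) and 92.0% with median centring in place of loess (4991 and 434). That last scaling put the median of all genes at 0.37, against 0.023 after loess. Under it, list medians are read relative to the median of all genes. Single genes are read against 0, so a gene that turned to a value between 0 and 0.37 was still below that median. The background correction adds a constant to every spot, which weighs most on dim ones. Folds of dim genes are therefore understated, and the deposited ratio is given for some of them. Counts for lists are after loess unless said otherwise, and by the deposited ratios several lists had more members past 2-fold.

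**Figure D1:**
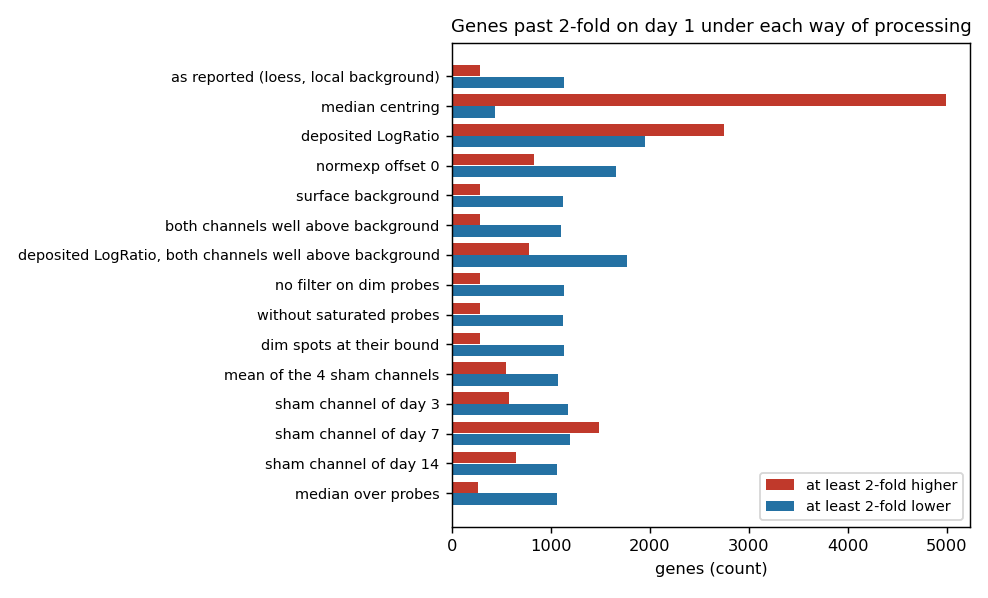
Number of genes at least 2-fold higher (red) and at least 2-fold lower (blue) in injured muscle than in sham on the day 1 array, for each way of processing. As reported, 283 genes were higher and 1127 lower, and the higher genes outnumbered the lower ones with median centring, with the deposited ratios and against the sham channel of day 7.

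The highest gene with a symbol was Cd300c2, a receptor of myeloid cells, at 12.52 in injured muscle and 8.90 in sham, 12.3-fold higher. Over the 4 sham channels it ranged from 3.62 to 3.97. Fam111a, a protease with a role in DNA replication, was 7.02-fold higher by its brighter probe and at 1.85 by its other. Myeloid receptors recurred among the 15 highest genes. Itgam, the CD11b integrin chain that lets neutrophils and monocytes adhere, was 6.74-fold higher, Lilrb3, an inhibitory receptor of myeloid cells, 4.33-fold and Ceacam4 4.06-fold. Chemokines and secreted proteins made up much of the rest: Cxcl10 at 2.45, Ccl2 at 2.08, Ccl12 at 2.06 and the matrix proteoglycan versican, Vcan, at 1.97. A further 5 of the 15, S100a9, S100a8, C3h15orf48, Ifit1 and Arg1, lay between 2.19 and 2.62.

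The 15 lowest genes were nearly all muscle genes. Lmod2, the leiomodin that lengthens thin filaments, was at 8.18 in injured muscle and 13.14 in sham, 31.1-fold lower. Tcap, telethonin, which caps titin at the Z-disc, was 25.6-fold lower, and synemin, Synm, an intermediate filament protein that links Z-discs, was 21.4-fold lower. The Z-disc protein Pdlim3 was 21.1-fold lower. These structural genes were past 8-fold against each of the 4 sham channels, with the smallest difference for Lmod2 at -3.32. Sln, sarcolipin, the inhibitor of the calcium pump, was 20.1-fold lower by its brighter probe, but its other probe was at -0.57. Ampd1, Cox8b and Cpt1b had other probes within 2-fold of sham as well, at -0.066, -0.73 and -0.39. The probe called Myh6 was 20.4-fold lower. Myosin heavy chain genes are near-identical over long stretches, so that probe may also bind the transcript of Myh7 and is uncertain.

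**Figure D2:**
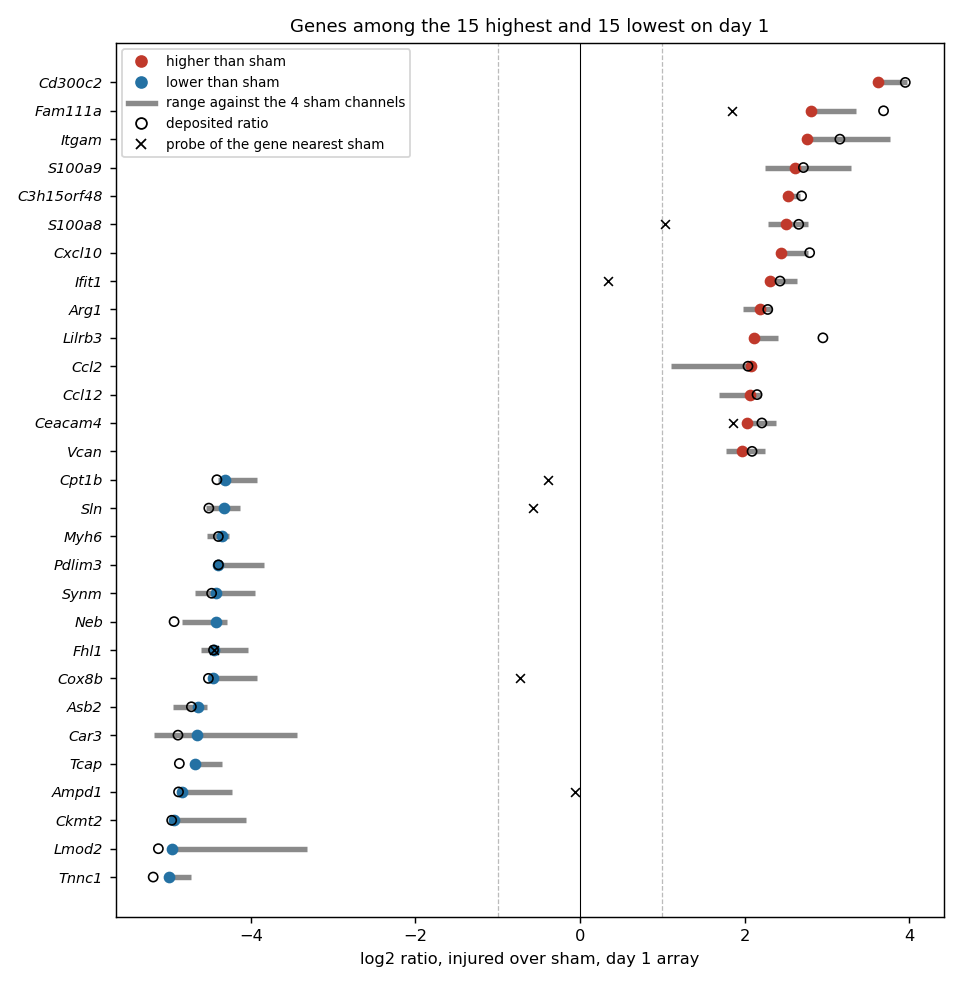
Genes with a symbol among the 15 highest and among the 15 lowest of the day 1 array, as log2 ratio of injured to sham (filled points), with the range over the 4 sham channels (grey bars), the deposited ratio (open circles) and the probe of the gene nearest sham where there is more than 1 (crosses). Cd300c2 leads at 3.62 and Tnnc1 is lowest at -5.00, and the crosses of Ampd1, Cox8b, Cpt1b, Sln and Ifit1 lie within 2-fold of sham.

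Contractile genes of both fibre types were lower as a body. All 12 measured fast fibre genes were at least 2-fold lower, with a median of -3.03, and 11 of 14 slow fibre genes, with a median of -3.91, beside an all-gene median of 0.023 and 4.92% lower over all genes. Summed over the list, fast fibre brightness was at least 9.04-fold lower in injured muscle than in sham, and slow fibre brightness at least 8.43-fold lower, both bounds because 1 sham spot in each list was saturated. The slow fibre sum was at least 18.4-fold lower without Tpm3 and Atp2a2, which were left out after their values were seen. Fewer fibres and less RNA per fibre cannot be told apart in RNA from whole muscle. Fast troponin I, Tnni2, was at 13.68 in injured muscle and 16.90 in sham, 9.33-fold lower. Fast troponin C, Tnnc2, was at least 10.4-fold lower, its sham spot being saturated. The fast genes lay close together, from -3.38 to -2.81, except Mylk2, the kinase of fast myosin light chain, at -1.59. Among slow genes the beta myosin heavy chain, Myh7, was at 12.70 in injured muscle and saturated at 16.79 in sham, at least 17.1-fold lower. The 2 members farthest from the rest, the calcium pump Atp2a2 at -0.065 and the tropomyosin Tpm3 at 0.82, are also expressed outside muscle fibres. Their probes disagreed: the 3 probes of Atp2a2 ranged from -3.85 to 0.37 and the 7 probes of Tpm3 from -4.97 to 0.89.

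The scaffold of the sarcomere matched the filaments. Of 25 measured sarcomere and Z-disc genes 24 were at least 2-fold lower, with a median of -3.42. Titin, Ttn, the elastic filament that runs from Z-disc to M-line, was at 8.32 in injured muscle and 12.15 in sham, 14.2-fold lower, but its probes ranged up to -1.07. Skeletal actin, Acta1, was 8.87-fold lower and the intermediate filament desmin, Des, 10.7-fold lower. Smyd1, a methyltransferase needed for sarcomere assembly, was nearer to sham at -1.57. The tropomyosin Tpm2 was the one member within 2-fold, at -0.88, although its probes ranged from -3.11 to -0.74, and Tpm1 was at -2.69 by its brightest probe but at 0.28 by another.

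Promoters of 2 of these genes are shown because they hold a match to the site of MEF2, the factor that drives many muscle genes. The site was searched as CTANAAATA on both strands over 250 bases before each start. The matched letters are in capitals. Sequences are from RefSeq, build GRCr8, on the strand of the gene: Des lies at chr9:84299559-84299625 on the plus strand and Myl1, a fast light chain, at chr9:75897937-75898005 on the minus strand.
Des: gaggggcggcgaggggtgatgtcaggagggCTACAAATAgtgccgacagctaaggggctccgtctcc
Myl1: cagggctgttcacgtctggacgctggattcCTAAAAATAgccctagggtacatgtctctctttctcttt
The Des match begins 37 bases before the start and the Myl1 match 176 bases before 1 of its starts. Des was at -3.42 and Myl1 at -3.35. Over all 33469 promoters 1.27% hold these letters. Among measured genes with a listed promoter they were found in 2 of 10 fast fibre genes (Myl1 and Myh4), 1 of 11 slow fibre genes (Casq2) and 2 of 19 sarcomere genes (Des and Xirp2). Casq2 and Xirp2 were named after their values were seen. The E-box CAGCTG, a core bound by myogenic factors such as MyoD, was in 12.0% of all promoters and in 3 of 10, 5 of 11 and 4 of 19 promoters of those lists. A match is a description of the letters and not evidence of binding.

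Genes that turn an action potential into calcium release were split. Of 19 excitation-contraction coupling genes 10 were lower and 0 higher, with a median of -1.99. Stac3, the adaptor that holds the voltage sensor in place, was at 7.97 in injured muscle and 11.87 in sham, 14.8-fold lower. The voltage sensor Cacna1s was 10.9-fold lower by its brighter probe and at -0.38 by its other, and its partner Cacna2d1 was 10.4-fold lower. The ryanodine receptor partner Fkbp1a, which serves many cell types, was at 0.18.

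Sodium-potassium pump subunits stood apart from each other. The beta subunit Atp1b1 was at 10.47 in injured muscle and 12.59 in sham, 4.34-fold lower. The widely expressed beta subunit Atp1b3 was 1.78-fold higher, and the pump regulator Fxyd5 was 2.09-fold higher by its brighter probe and at 0.18 by its other, against 4.71-fold lower for Fxyd1, phospholemman. The ATP-sensitive potassium channel pore Kcnj11 was at -2.48. Of the 13 measured pump and channel genes 7 were lower and Fxyd5 alone higher, with a median of -1.07.

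Membrane support and repair genes were also divided. Of 15 dystrophin complex genes 6 were lower, with a median of -0.40. Alpha-sarcoglycan, Sgca, was 10.7-fold lower and sarcospan, Sspn, 5.50-fold lower, while epsilon-sarcoglycan, Sgce, found beyond muscle, was at 0.14. Dystrophin, Dmd, was a dim spot at -0.69 and at -1.69 by the deposited ratio. Among 15 membrane repair genes the muscle proteins calpain 3 (Capn3), caveolin 3 (Cav3), dysferlin (Dysf) and MG53 (Trim72) were 8.19-fold, 7.20-fold, 5.48-fold and 5.43-fold lower, and no other member was lower. Annexin A1, Anxa1, an annexin that gathers at membrane wounds and also damps neutrophil entry, was at 14.12 in injured muscle and 13.02 in sham, 2.15-fold higher, and Anxa2 was at 0.94. The list median was -0.093 and its sign turned under median centring.

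At the nerve-muscle contact the acetylcholine receptor subunits were the lower genes. Chrnd was at 6.96 in injured muscle and 10.30 in sham, 10.1-fold lower, the embryonic subunit Chrng 6.62-fold and Chrna1 3.32-fold, and these were the only 3 of 16 endplate genes past 2-fold. Colq, which anchors acetylcholinesterase, was at -0.92 but at -2.92 by the deposited ratio. The list median was -0.31. By the deposited ratios 7 of the 16 were lower and 1 higher, against 1953 and 2745 of all 22899 genes.

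Genes that mark muscle formation were low as well. Of 10 embryonic muscle genes 9 were lower, with a median of -3.23. The embryonic light chain Myl4 was at 9.003 in injured muscle and 13.05 in sham, 16.5-fold lower, cardiac actin, Actc1, 11.7-fold and embryonic myosin, Myh3, 8.46-fold. Igf2 was at -1.62 and Dlk1 at -0.043. Among 26 satellite cell and myogenic factor genes Myog, Myf6 and Vcam1 were lower, at -3.74, -2.86 and -1.05, and Id2, an inhibitor of myogenic factors, was higher at 1.53. The early factors stood near sham: Myod1 was at -0.18 but reached 2.03 over the 4 sham channels, Myf5 was at -0.076, and the list median was -0.065. Of 14 load-responsive genes 7 were lower, Ankrd2 at -4.03 among them, and the median was -1.44. Follistatin, Fst, the binder of myostatin and activin, was 2.88-fold higher. The insulin-like growth factor genes had a median of -0.23. Igf1 was at -1.32, Igf2 at -1.62, Igfbp4 at -1.27 and Igfbp5 at -1.95, the 4 lower genes of 13, and other probes of Igf1 and Igfbp5 were at -0.022 and -0.12.

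Energy genes differed in size by step. Fatty acid uptake and oxidation had 18 of 27 genes lower and a median of -1.26. The chain-shortening dehydrogenases Acadl and Acadm were 5.09-fold and 5.01-fold lower, and the muscle fatty acid carrier Fabp3 5.34-fold. Lipoprotein lipase, Lpl, and the fatty acid receptor Cd36, both also made by macrophages and fat cells, were at 0.65 and 0.60. Creatine and purine genes had 8 of 18 lower and a median of -0.064, whose sign turned under median centring. Cytosolic creatine kinase, Ckm, was at 13.06 in injured muscle and 16.29 in sham, 9.36-fold lower, and adenylosuccinate synthase, Adss1, was 6.58-fold lower. Brain-type creatine kinase, Ckb, was at 0.53. Xdh, xanthine oxidoreductase, which makes superoxide while breaking down purines, was at 10.86 in injured muscle and 8.97 in sham, 3.71-fold higher, and between 1.56 and 1.89 over the 4 sham channels.

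In glycolysis the muscle isoforms and the general isoforms stood apart. Phosphofructokinase of muscle, Pfkm, was 8.31-fold lower and that of platelets, Pfkp, 1.66-fold higher. Muscle enolase, Eno3, was 8.62-fold lower, with ratios over the 4 sham channels from -3.11 to -1.24, and muscle glycogen phosphorylase, Pygm, was 7.66-fold lower. Ldhb, the lactate dehydrogenase of oxidative fibres, was at 9.24 in injured muscle and 13.02 in sham, 13.8-fold lower. The widely expressed mutase Pgam1 was at 0.74 and the glucose transporter Slc2a1 at 0.67. Over 33 measured glycolysis and glycogen genes 12 were lower and 0 higher, with a median of -0.29.

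Mitochondrial genes were lower by smaller amounts, and the sign of these medians rested on the scaling. Over all genes 4.92% were lower. The tricarboxylic acid cycle had 8 of 25 genes lower (median -0.72), complex I 12 of 30 (-0.91), and complexes III, IV and ATP synthase 15 of 35 (-0.91), and all 3 medians turned slightly positive relative to all genes under median centring. The muscle isoforms went further than the shared subunits. Cox6a2, the muscle subunit of cytochrome oxidase, was 7.90-fold lower, and Slc25a4, the ATP/ADP carrier of muscle, was 5.74-fold lower (from -2.52 to -0.91 over the 4 sham channels), whereas Slc25a5, the carrier of other tissues, was 1.57-fold higher. Isocitrate dehydrogenase 2, Idh2, was at -1.59 and the complex I subunit Ndufv3 at -1.55. The mitochondrial ribosome and import list had 1 of 39 genes lower, Mrpl15 at -1.09, and the signs of Mrpl15 and of the list median, -0.38, turned under median centring. Cytosolic ribosomal protein genes had a median of 0.0 over 50 genes, but of 1.11 relative to all genes under median centring, and 15 of them were saturated in injured muscle. Rplp1 was their single lower member, at -1.22, but its injured spot was saturated, so that no fold can be given, and its direction reversed under median centring.

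Protein turnover and chaperone lists held more lower than higher genes, as did the array as a whole, with 4.92% lower and 1.24% higher. Of 23 ubiquitin ligase and atrophy genes 10 were lower, with a median of -0.70. The sarcomere ligase Trim63, MuRF1, was at 7.94 in injured muscle and 11.39 in sham, 10.9-fold lower, and its relative Trim54 was 9.71-fold lower. Fbxo32, atrogin-1, was a dim spot at -1.26 and at -3.55 by the deposited ratio. The proteasome itself had 1 of 35 genes lower, Psmd11 at -1.24, and a median of -0.50, and both signs turned under median centring. Of 28 heat shock genes 8 were lower, with a median of -0.57 that also turned under median centring. The small heat shock proteins Hspb3, Hspb1, Hspb6 and Hspb2 were 15.5-fold, 6.26-fold, 5.61-fold and 5.06-fold lower. The inducible Hsp70 gene Hspa1a was at 0.89, with another probe at 0.18. Autophagy and lysosome genes had a median of -0.10, whose sign turned under median centring, and 5 of 32 were lower: the mitophagy kinase Pink1 at -2.73, Bnip3 at -1.99, the cargo receptor Sqstm1 at -1.96 by 1 of its 5 probes and 0.38 by another, Gabarapl1 at -1.72, and Gabarapl2 at -1.15 (0.39 against the sham channel nearest to injured muscle), which was named after its values were seen. The lysosomal cathepsins Ctss and Ctsh, abundant in macrophages, were at 0.84 and 0.80.

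**Figure D3:**
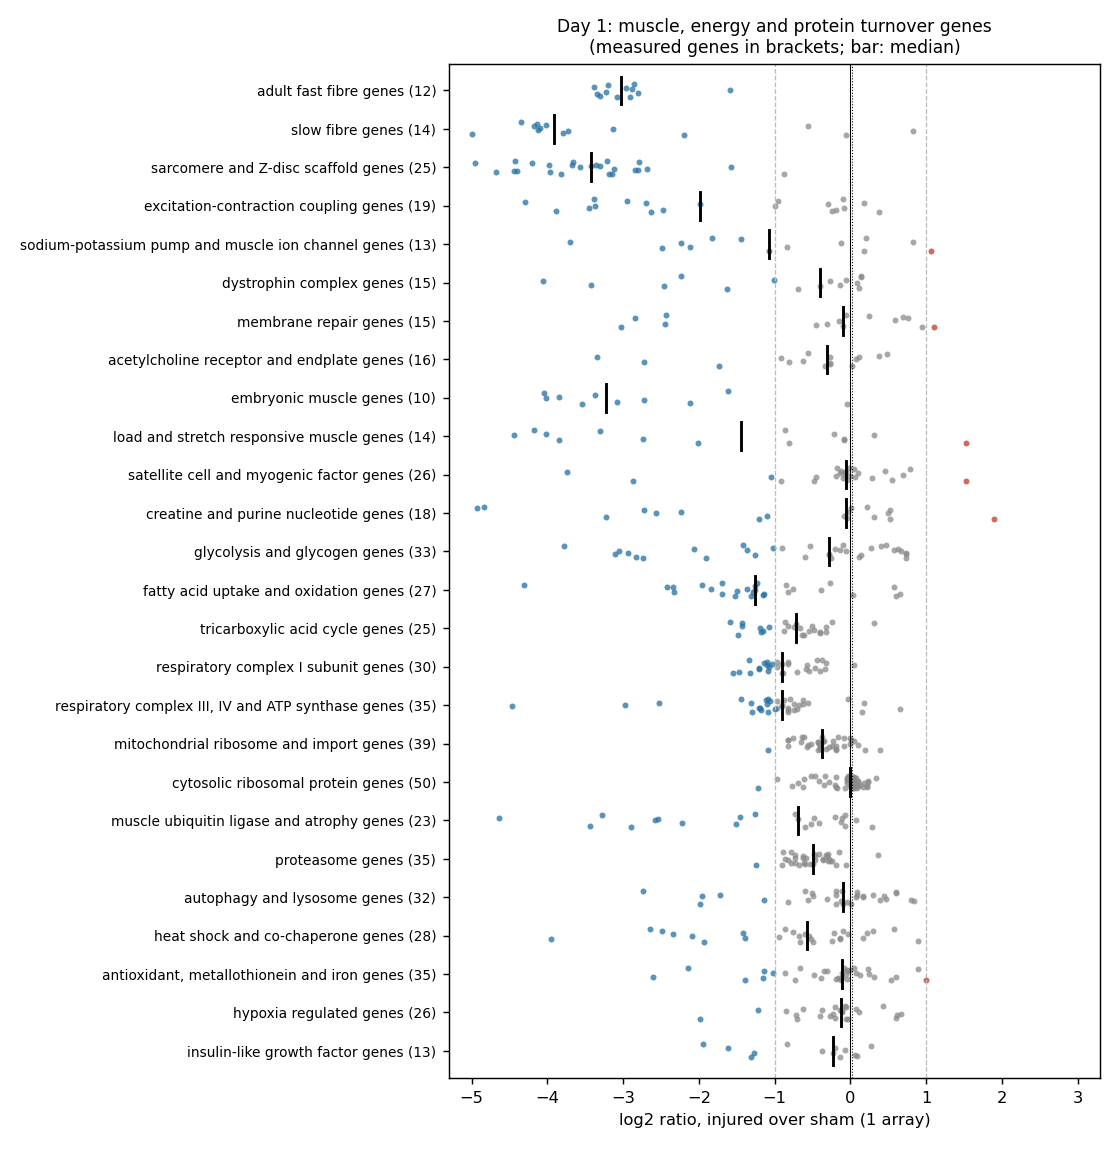
Log2 ratio of injured to sham for each measured gene of 26 lists of muscle, energy and protein turnover genes (points; red at least 2-fold higher, blue at least 2-fold lower, grey neither), with the list median (bar) and 2-fold (dashed lines). Fast fibre genes sit around -3.03 and slow fibre genes around -3.91, whereas the cytosolic ribosome centres on 0.0. The medians for membrane repair, the tricarboxylic acid cycle, the respiratory complexes, mitochondrial and cytosolic ribosome, creatine and purine, proteasome, autophagy, heat shock, antioxidant and hypoxia genes turn positive relative to all genes under median centring, the cytosolic ribosome to 1.11.

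Stress genes gave a mixed picture. Of 35 antioxidant, metallothionein and iron genes 6 were lower, the lowest being the glutathione transferase Gsta1 (6.08-fold), the metallothionein Mt1 at -2.14 (-0.44 by another probe), catalase, Cat, at -1.40 and the extracellular superoxide dismutase Sod3 at -1.16. Heme oxygenase 1, Hmox1, was the single higher one, just at the limit with 2.00-fold. The list median of -0.12 turned under median centring. In the endoplasmic reticulum the folding enzyme Pdia4 was 2.40-fold and the pseudokinase Trib3 2.23-fold higher, the only 2 of 23 genes called, with a list median of 0.16. Immediate early genes had a median of 0.25. Ier2 was at 1.01, the growth-arrest gene Gadd45a was 3.85-fold lower and Ier3 2.59-fold lower, and no other member of 33 was past 2-fold. Fos was at 0.80, Myc at 0.87, Btg2 at 0.90 and Atf3 at 0.90. Of 26 hypoxia-regulated genes only Bnip3 and the oxygen-sensing hydroxylase Egln3 passed 2-fold, at -1.99 and -1.22. Hif1a was at 0.60 and Vegfa at -0.054, and the list median of -0.13 turned under median centring.

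Neutrophil genes were the list with the highest median. Of 21 measured members 9 were higher and 0 lower, with a median of 0.94 against an all-gene median of 0.023 and 1.24% higher over all genes. The paired calcium-binding proteins that fill neutrophil cytosol led it. S100a9 was at 12.24 in injured muscle and 9.63 in sham, 6.13-fold higher and between 2.25 and 3.29 over the 4 sham channels. S100a8 was 5.67-fold higher by its brightest probe and 1.04 by its lowest. Haptoglobin, Hp, was 3.37-fold higher and the integrin chain Itgb2, which pairs with CD11b, 2.76-fold. Dim members were further from sham by the deposited ratios: the gelatinase Mmp9 was at 0.89 and 1.59 by the deposited ratio, and Lcn2, lipocalin 2, at 0.76 and 1.14. Some other granule genes were near sham or unmeasured. Myeloperoxidase, Mpo, was at -0.13 and not well above background in sham, the defensin Np4 was at 0.008, and 7 listed genes, among them the granule genes Ltf, Ctsg and Ngp, were not well above background in either channel, a remark made after their values were seen. Summed neutrophil brightness was 51247 in injured muscle and 18706 in sham, 2.74-fold higher.

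Monocyte and macrophage genes were higher on average. Of 36 measured members 10 were higher and C1qa alone was lower, with a median of 0.48. The shares over all genes were 1.24% higher and 4.92% lower. The chemokine receptor Ccr2 was at 8.90 in injured muscle and 7.503 in sham, 2.63-fold higher, the high-affinity IgG receptor Fcgr1a 2.74-fold, the scavenger receptor Msr1 2.66-fold, the lectin Clec4d 2.75-fold and the endotoxin co-receptor Cd14 2.19-fold. The general macrophage markers Adgre1 and Cd68 were at 0.51 and 0.59. The haemoglobin receptor Cd163 was at -0.45, the mannose receptor Mrc1 at 0.39 (up to 1.89 over the 4 sham channels), and the complement C1q chains C1qb and C1qa were 1.96-fold and 2.01-fold lower. Under median centring C1qa was at 0.11, above 0 but below the all-gene median of 0.37. Summed macrophage brightness was 272408 in injured muscle and 161172 in sham, at least 1.69-fold higher because 4 members were saturated in injured muscle.

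Lymphocyte genes were close to sham after loess, as were most genes on the array. None of 21 measured T, NK and B cell genes was higher, where over all genes 1.24% were, and the median was 0.093. By the deposited ratios 4 of the 21 were higher and 1 lower, against 2745 and 1953 of all 22899 genes. A further 9 listed genes, Cd3e among them, were not well above background in either channel. Cd8a and Cd8b, the CD8 chains, were highest at 0.56 and 0.51, and Cd6 was the single lower member at -1.99, with another probe at -0.28. Summed brightness of the list was 6163 in injured muscle and 5576 in sham.

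The monocyte chemokines Ccl2 and Ccl12 and the T cell attractant Cxcl10 were among the 15 highest genes. Ccl2, the main monocyte attractant, was at least 4.22-fold higher because its injured spot was saturated, and between 1.11 and 2.08 over the 4 sham channels. Ccl12, a close relative acting on the same receptor in mice, was 4.18-fold higher. Of 22 CC chemokine and receptor genes 7 were higher, against 1.24% over all genes. Only Ccl21, which guides lymphocytes and dendritic cells to lymph nodes, was lower, at -1.69, against 4.92% over all genes. The list median was 0.062, but relative to all genes it was 0.62 over genes well above background in both channels, 0.47 by the deposited ratios and -0.19 under median centring. Cxcl10, which attracts activated T cells, was at 10.999 in injured muscle and 8.553 in sham, 5.45-fold higher, and Cxcl1, a neutrophil attractant, was at 10.39 and 8.90, 2.82-fold higher. The neutrophil attractant Cxcl2 was at 0.36. Besides Cxcl10 and Cxcl1, the higher members of 21 CXC genes were platelet factor 4, Pf4, at 1.07 and Cxcl13 at 1.20, the last of them named after its values were seen. The scavenging receptor Ackr3 was 4.07-fold lower and Cxcl14 2.496-fold lower, but against the sham channel nearest to injured muscle they were at -0.56 and -0.030.

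Cytokine genes were mostly within 2-fold of sham after loess. By the deposited ratios 13 of 34 interleukin genes were higher and 1 lower, and 6 of 25 tumor necrosis factor family genes were higher and 0 lower. Over all 22899 genes those ratios gave 2745 higher and 1953 lower. Il1b, the interleukin released through the inflammasome, was at 11.73 in injured muscle and 10.19 in sham, 2.92-fold higher. The interleukin 33 receptor Il1rl1 was 2.71-fold higher (0.34 by another probe), Il18 2.31-fold and the macrophage growth factor Csf1 2.21-fold. With the decoy receptor Il1r2 at 1.04, named after its values were seen, these were the 5 higher genes of 34 interleukin genes, whose median was 0.21. The antagonist Il1rn was at 0.70 and Il10 at 0.66. Tnf was not well above background in sham and at least 1.13-fold higher, and at 1.57 by the deposited ratio. In the tumor necrosis factor family lymphotoxin beta, Ltb, was 2.46-fold and Tnfsf9, the 4-1BB ligand, 2.07-fold higher, the only 2 of 25.

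Some receptors for microbial and damage signals were higher. Tlr2 was at 12.76 in injured muscle and 11.52 in sham, 2.37-fold higher, and Tlr4, which with Cd14 detects endotoxin, was 2.23-fold higher. With Cd14 these were the 3 higher of 28 Toll-like receptor and NF-kB genes, against 1.24% over all genes. The list median was 0.48, and 23 of the 28 lay above 0. The feedback inhibitor Nfkbia was at 0.39 and the inflammasome protease Casp1 at 0.89.

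Interferon response genes formed a further higher group, with 10 of 46 members higher, Ifi27 alone lower and a median of 0.47. Over all genes 1.24% were higher and 4.92% lower, with a median of 0.023. The ubiquitin-like modifier Isg15 was at 12.53 in injured muscle and 11.10 in sham, 2.70-fold higher, and Slfn4, a gene of activated myeloid cells, 2.94-fold. The RNA-binding Ifit1 was 4.95-fold higher by its brightest probe but at 0.34 by its lowest, and Ifit2 3.21-fold and 0.44. Ifi27 was 2.41-fold lower. Under median centring it was at 0.009, above 0 but below the all-gene median of 0.37. Promoters are shown because many genes of this group share an element bound by interferon-induced factors, searched as GAAANNGAA on both strands over 250 bases before each start. Capitals mark the match, and sequences are from RefSeq, build GRCr8, on the strand of the gene: Cxcl10 at chr14:15988816-15988861 (plus), Rsad2, viperin, at chr6:48788228-48788296 (minus), and Oas1a, an antiviral oligoadenylate synthetase, at chr12:41330395-41330465 (plus). Rsad2 and Oas1a were named after their values were seen. Cxcl10 belongs to the CXC list and is not in the counts of interferon response genes given here.
Cxcl10: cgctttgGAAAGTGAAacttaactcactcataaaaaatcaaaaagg
Rsad2: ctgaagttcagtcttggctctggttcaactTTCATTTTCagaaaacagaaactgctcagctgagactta
Oas1a: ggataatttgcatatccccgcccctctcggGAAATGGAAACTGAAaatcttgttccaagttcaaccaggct
Oas1a holds 2 overlapping matches, 41 and 35 bases before its start, and the Rsad2 match lies on the other strand. Rsad2 was 2.37-fold and Oas1a 2.59-fold higher. The element was in 20 of 34 measured interferon response genes with a listed promoter (58.8%), against 8.12% of all promoters. Within the list it was in 3 of 5 genes called higher (60.0%) and in 16 of 28 within 2-fold of sham (57.1%).

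The site of NF-kB, a factor activated by Toll-like receptors and Il1b, was searched in the same way as GGGANNNTC. The Cxcl1 promoter, at chr14:17479365-17479435 on the minus strand of GRCr8 in RefSeq, is shown because it holds 2 overlapping matches, 84 and 82 bases before the start, in capitals.
Cxcl1: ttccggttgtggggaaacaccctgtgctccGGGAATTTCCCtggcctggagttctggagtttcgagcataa
The letters were found in 9 of 18 CXC genes, 6 of 15 CC genes and 6 of 24 Toll-like receptor and NF-kB genes with a listed promoter, against 11.87% of all promoters. Among genes called higher they were in 2 of 3, 2 of 5 and 0 of 3 of these lists. Among genes within 2-fold of sham they were in 7 of 13, 4 of 9 and 6 of 21.

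Antigen presentation genes were mostly near sham, as were most genes on the array, where 1.24% were higher and 4.92% lower. In class I presentation the immunoproteasome subunit Psmb8 was 2.11-fold higher and RT1-CE16 2.11-fold lower, the only 2 of 20 genes called, with a median of 0.20. The RT1-CE16 value turned to 0.23 under median centring. In class II presentation RT1-Bb was at -3.21 by 1 probe and 0.25 by the other, and RT1-Ba was not well above background in injured muscle, at least 1.79-fold lower. RT1 genes are near-identical and vary between rat strains, so their values are uncertain.

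The complement list held members on both sides, 6 higher and 6 lower of 28, with a median of -0.23. Itgam and Itgb2, the chains of complement receptor 3, were higher. Lower were the regulator Cfi, at least 5.57-fold, the extracellular chaperone clusterin, Clu, 3.88-fold, and the protease C1s, 2.95-fold, with another probe of C1s at -0.74. In coagulation the von Willebrand factor protease Adamts13 was 2.12-fold higher, the only 1 of 26 called after loess. By the deposited ratios 7 of the 26 were higher and 1 lower, against 2745 and 1953 of all 22899 genes. Tissue factor, F3, was at -0.48, Plaur, the urokinase receptor, at 0.60 and thrombomodulin, Thbd, at 0.85. Thrombin, F2, was at least 1.78-fold lower, being not well above background in injured muscle.

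Among enzymes of lipid mediators, Tbxas1, thromboxane synthase, was 2.43-fold higher and the leukotriene B4 receptor Ltb4r 2.25-fold, the 2 higher of 22 genes. Alox5ap, the helper of leukotriene synthesis, was 1.91-fold higher. Ptgs2, the inducible cyclooxygenase, was not well above background in sham and at least 1.102-fold higher, and Ptgs1 was at -0.77. In arginine, nitric oxide and oxidase genes 4 of 24 were higher, against 1.24% over all genes, and 21 lay above 0, with a median of 0.31. By the deposited ratios 12 of the 24 were higher and 0 lower, against 2745 and 1953 of all 22899 genes. Arginase 1, Arg1, was at 13.50 in injured muscle and 11.31 in sham, 4.55-fold higher. Gch1, which makes the cofactor of nitric oxide synthases, was 2.48-fold higher, and the phagocyte oxidase subunits Ncf4 and Cyba were 2.48-fold and 2.05-fold higher. Inducible nitric oxide synthase, Nos2, was not well above background in sham and at least 1.13-fold higher.

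**Figure D4:**
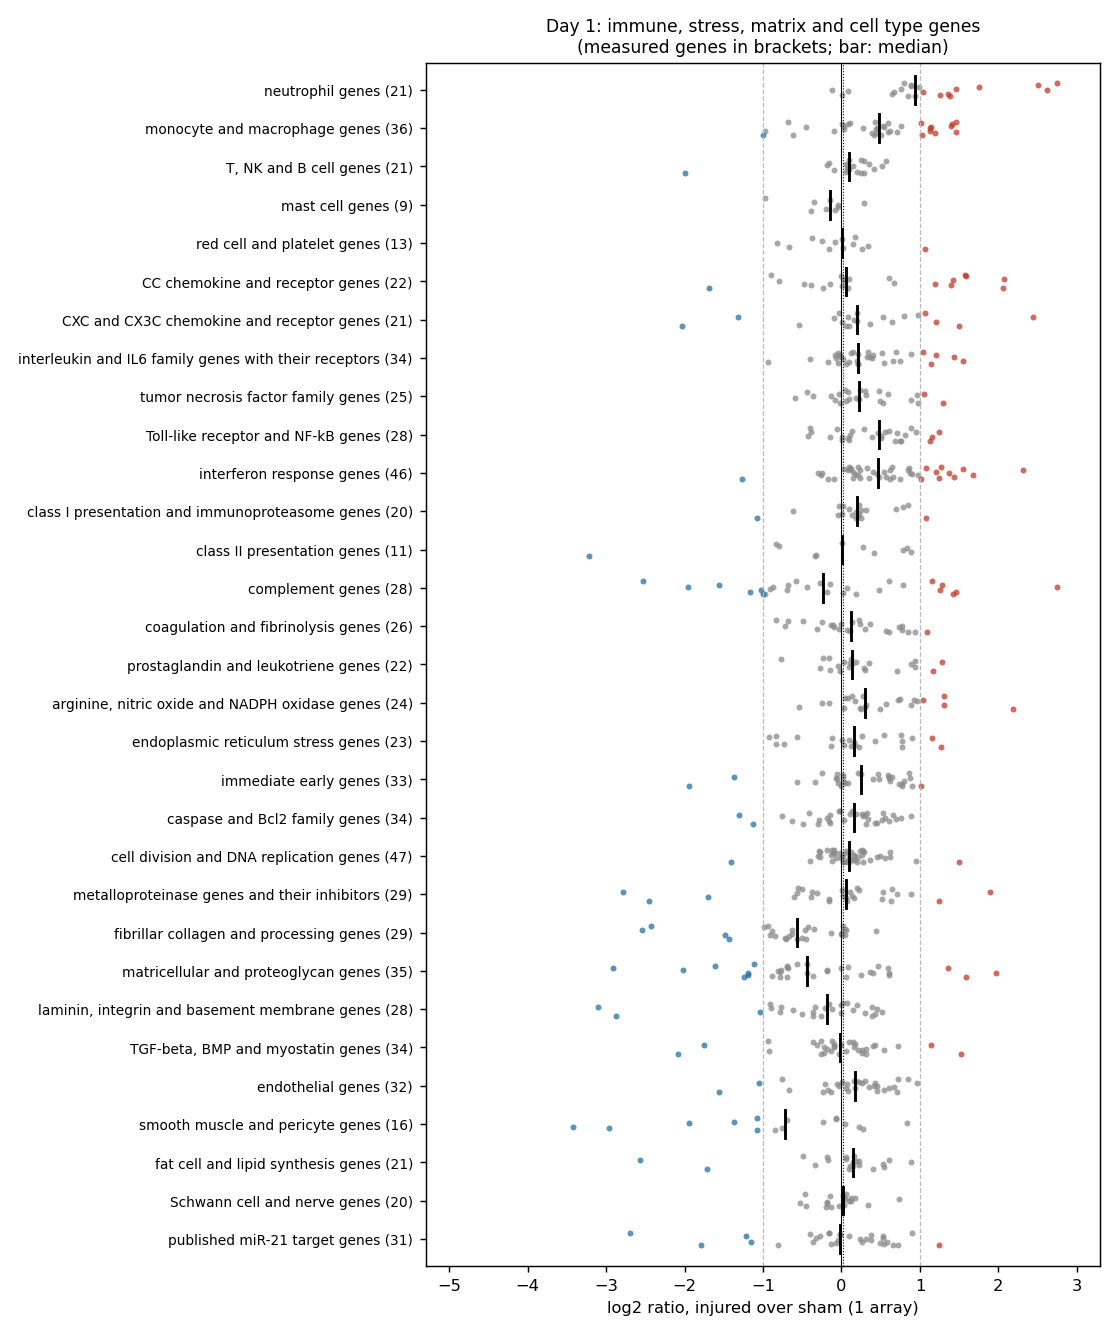
Log2 ratio of injured to sham for each measured gene of 31 lists of immune, stress, matrix and cell type genes (points; red at least 2-fold higher, blue at least 2-fold lower, grey neither), with the list median (bar) and 2-fold (dashed lines). Neutrophil genes have the highest median, 0.94, and smooth muscle and pericyte genes the lowest, -0.73. The matricellular median, -0.45, turns positive relative to all genes under median centring.

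Matrix genes were lower or near sham, with a small higher group. Of 29 fibrillar collagen and processing genes 4 were lower and 0 higher, with a median of -0.56. The shares over all genes were 4.92% lower and 1.24% higher. Col3a1 was at 11.75 in injured muscle and 14.17 in sham, 5.36-fold lower, Col1a1 5.82-fold, Col1a2 2.79-fold and Col16a1 2.71-fold, with another probe of Col16a1 at -0.15. The Col1a1 value depended on the sham muscle: over the 4 sham channels it ran from -2.54 to 0.11, the last against the sham of day 14. Among 35 matricellular genes 7 were lower and 3 higher, with a median of -0.45, whose sign turned under median centring. Versican, Vcan, and fibronectin, Fn1, components of the early provisional matrix, were 3.91-fold and at least 2.99-fold higher, the second saturated in injured muscle, and the hyaluronan synthase Has1 was at 1.36, named after its values were seen. Cilp, Ogn and Thbs4 were 7.55-fold, 4.05-fold and 3.07-fold lower, but the other probe of Cilp was at -0.64 and Thbs4 reached -0.61 over the 4 sham channels. Osteopontin, Spp1, was saturated in injured muscle and at least 1.06-fold higher, and tenascin C, Tnc, was at -0.006.

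Matrix proteases held members on both sides. Mmp3, stromelysin 1, was at 10.48 in injured muscle and 8.58 in sham, 3.72-fold higher, and with Adam8 at 1.24, named after its values were seen, made up the 2 higher of 29. Mmp10, stromelysin 2, was 6.91-fold lower, the protease trap A2m 5.48-fold and the membrane protease Mmp14 3.25-fold. The inhibitors Timp1 and Timp3 were at 0.003 and -0.16. In the basement membrane the integrins Itgb6 and Itga7, the second the laminin receptor of muscle fibres, were 8.62-fold and 7.32-fold lower, and the laminin chain Lamb2 2.05-fold. No other member of 28 was past 2-fold. In the transforming growth factor family the antagonists Fst and Grem1 were higher, at 1.53 and 1.14, the antagonist Chrd and the ligand Tgfb3 were lower, at -2.09 and -1.75, and the other 30 of 34 members were within 2-fold. Second probes of Grem1 and Chrd were at -0.095 and -0.27.

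Markers of the other cells in muscle were measured beside these lists, and their part in the results was not tested. Endothelial genes had a median of 0.18. Pecam1 and Cdh5, which define endothelium, were at -0.17 and 0.058, the first not well above background in sham. The adhesion molecule Icam1 was at 0.71, and Sele was at least 1.59-fold higher with its sham spot not well above background. Vcam1 and the water channel Aqp1, at -1.05 and -1.56, were the only 2 of 32 past 2-fold after loess. By the deposited ratios 7 of the 32 were higher and 2 lower, against 2745 and 1953 of all 22899 genes. Summed endothelial brightness was 16777 in injured muscle and 14081 in sham. Smooth muscle and pericyte genes had 6 of 16 lower and a median of -0.73, with a summed brightness of 11780 in injured muscle and 39060 in sham. Without desmin, which fibres also express and which was left out after its values were seen, the sums were 9312 in injured muscle and 12591 in sham. Cspg4, a pericyte marker, was 2.59-fold lower, but 4 of the 16 genes lay above 0. Among those were Pdgfrb at 0.28 and Mcam at 0.83, with another probe of Mcam at 0.17. Fat cell genes had a median of 0.15, and 15 of 21 lay above 0. The 2 lower ones were Me1 at -2.56 (-1.19 by its other probe) and Cidea at -1.71. Adiponectin, Adipoq, was at -0.34, Acly at 0.61 and Dgat2 at 0.89, with another probe of Dgat2 at 0.061. No Schwann cell and nerve gene of 20 was past 2-fold. Mast cell genes were all within 2-fold, with the protease Cpa3 at -0.35. Most genes on the array were within 2-fold too, with 1.24% higher and 4.92% lower. The haemoglobin genes Hbb-b1 and Hba-a3 were at -0.82 and -0.66. Globin genes come in near-identical copies, so which of them these probes read is uncertain.

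Most genes of cell division and cell death were within 2-fold, as were most genes on the array, where 1.24% were higher and 4.92% lower. Of 47 cell division genes cyclin D1, Ccnd1, which drives entry into the cycle, was 2.84-fold higher, and the inhibitor Cdkn1a, p21, was 2.65-fold lower, with its other probe at -0.54. Mki67, present in dividing cells, was at -0.086, and the list median was 0.090. Of 34 caspase and Bcl2 family genes only cytochrome c, Cycs, at -1.31 and Bcl2l2 at -1.13 were past 2-fold, and the first turned to 0.14 under median centring and the second was at 0.20 by its other probe.

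Published targets of miR-21, a microRNA that limits several growth and death regulators, were listed because RNA was extracted with a kit for small RNA. The mature sequence is shown with its seed, bases 2 to 8, in capitals, from RefSeq, build GRCr8, at chr10:71902653-71902674 on the minus strand.
rno-miR-21-5p: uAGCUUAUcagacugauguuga
The miRNA itself was not measured on this array. Of 31 measured targets Lrrfip1 was higher, at 1.25, and Tpm1, Acat1, Map2k3 and Sod3 were lower, at -2.69, -1.79, -1.22 and -1.16, with a list median of -0.017. Relative to all genes that median was 0.14 by the deposited ratios and 0.41 under median centring. Map2k3 turned to 0.17 under median centring and a second probe of Tpm1 was at 0.28. Tpm1 and Acat1 also belong to the muscle and energy genes that were lower. The targets Pdcd4, Reck, Timp3 and Spry1 lay between -0.27 and -0.13.

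Values of the same lists on the later arrays were set beside those of day 1, again with 1 array each. The neutrophil median was 0.94, -0.19, -0.29 and -0.50 on days 1, 3, 7 and 14. S100a9 was at 2.62, -0.40, -1.20 and -2.57, so day 1 was the only array on which it was higher. Interferon response genes had medians of 0.47, -0.26, 1.31 and 0.97, and Isg15 was at 1.43, -1.09, 3.68 and 2.54. Collagen genes had medians of -0.56, 1.00, 1.48 and 1.18, and cell division genes 0.090, 0.89, -0.32 and -0.39. Embryonic muscle genes had medians of -3.23, -0.66, 1.99 and 0.87, and Myh3 was at -3.08, -0.24, 5.08 and 4.35. Fast fibre genes had medians of -3.03, -4.14, -0.024 and 1.37, and slow fibre genes -3.91, -4.20, -1.32 and -1.19. Differences between days were not tested, and each array had its own sham channel.

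**Figure D5:**
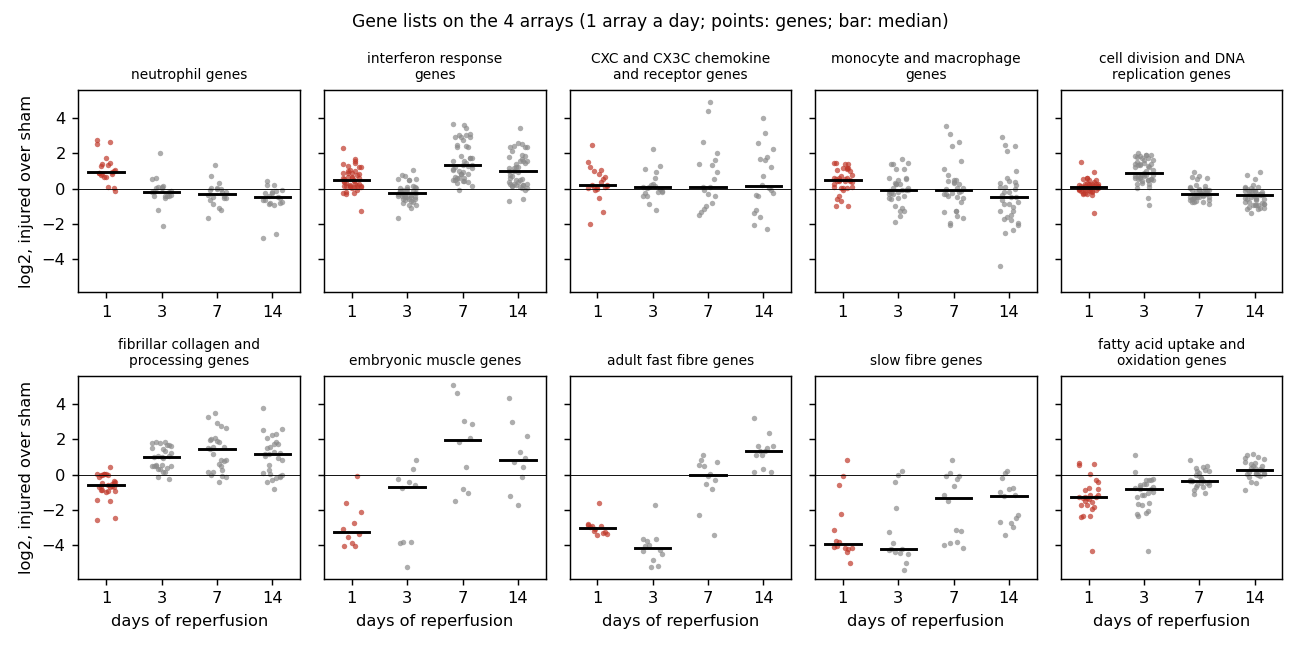
Log2 ratio of injured to sham (vertical axis) for the genes of 10 lists on the arrays of 1, 3, 7 and 14 days of reperfusion, 1 array a day (points: genes, red for day 1; bar: list median). Neutrophil genes have their highest median on day 1 (0.94), cell division genes on day 3 (0.89) and interferon response genes on day 7 (1.31), and collagen and embryonic muscle genes lie below 0 on day 1 alone or on days 1 and 3.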

How the data were processed

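RNA was amplified and labelled during in vitro transcription, and hybridized to 2-colour Agilent arrays, per the labels' protocols. For every spot the deposited intensity columns give mean brightness and local background, without normalization. The deposited LogRatio is log10 of Cy5 over Cy3 after the scanner software's own corrections, per the file headers, where the software is Feature Extraction 10.5.1.1, while version 9.5.3 stands in the submitters' processing notes. The deposited value table holds log2 ratios equal to LogRatio times log2(10) within 0.005 over 40972 probes, so its scale and direction are known.

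Intensities were corrected with limma 3.58.1 in R 4.3.3 (normexp, offset 50) and normalized by loess within the array, with control and outlier spots given no weight. Single-channel levels came from quantile normalization of mean brightness after loess. Spots of 1 probe were averaged, and the brightest of a gene's probes stood for it. Of 41012 probes 20942 were named through RefSeq (GRCr8, names only) and 20070 kept the name in the file. A fold written as at least is a bound, given where a spot was saturated, or not well above background, in 1 channel. The array has no replicate, so precision is limited by the number of arrays, and no test was run. Named genes are the 15 highest and 15 lowest with a symbol, the 4 largest members of each of 57 lists and the 2 farthest against its median, targets of miR-21 past 1.5-fold, and a set of markers. The members, lists and searched motifs were chosen with earlier results of these data known. Of 1605 listed genes, 1368 were measured, 131 were not well above background and 106 were matched to no probe. Named genes not measured were Acta2, Cd79a, Pax7 and Tnfaip3 (no probe matched) and Cd3e. Results of some genes the rule names are not reported here. Steps were tested on simulated data. Alternatives are given in the closing section.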

Additional observations from a re-analysis of the deposited data

How the results depend on the processing

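Counts of higher and lower genes were within 1.5 times those reported with the surface background, with a gene's probes summarised by their median, without saturated or dim probes, with dim spots at their bound and with no filter. Under the settings that follow at least 1 of the 2 counts moved further. Median centring gave 4991 and 434, the deposited ratios 2745 and 1953, and the deposited ratios with both channels well above background 777 and 1763. An offset of 0 gave 831 higher genes, the mean of the 4 sham channels 548, and the sham channels of days 3, 7 and 14 gave 576, 1488 and 641. A threshold of 1.5-fold gave 1174 and 2151, and 4-fold 17 and 345. Of the genes called, median centring kept 283 higher and 431 lower, and the deposited ratios 281 and 1123. The surface background and the filtered deposited ratios were chosen after seeing the data.

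Of 3421 values of lists and named genes under an alternative, 23 reversed, counting list medians at least 0.5 from the median of all genes and named genes at least 2-fold from sham. Where a smaller list median is printed and turned, this is said beside it. Median centring put the medians, relative to all genes, at 0.12 for the tricarboxylic acid cycle, 0.041 for complex I, 0.070 for complexes III to V, 0.45 for the proteasome and 0.19 for heat shock, and put Atp5me at 0.21, C1qa at 0.11, Cycs at 0.14, Ifi27 at 0.009, Igf1 at 0.078, Map2k3 at 0.17, Mrpl15 at 0.018, Ndufa5 at 0.11, Ndufb4 at 0.20, Psmd11 at 0.041, RT1-CE16 at 0.23 and Rplp1 at 0.45. These single genes are read against 0, and only Rplp1 lay above the all-gene median of 0.37 under median centring. Probes nearest sham gave Bcl2l2 0.20, Grem1 -0.095, RT1-Bb 0.25, Sqstm1 0.38 and Tpm1 0.28, and the sham of day 14 gave Col1a1 0.11. The cause was not tested. Of 291 called genes with several measured probes, 187 had a probe within 2-fold of sham. Of 198 named genes called, 26 were within 2-fold against at least 1 of the 4 sham channels. Changes of dim spots are understated. No paired analysis was possible because there was 1 injured and 1 sham sample.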
